A study of Homo sapiens with 12 samples.

Results

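The genes described are 10 enzymes of serine synthesis, folate-bound C1 metabolism, asparagine synthesis and mitochondrial phosphoenolpyruvate synthesis, picked by symbol from a table of 57353 gene rows. PHGDH, PSAT1, PSPH, SHMT1, MTHFD1 and ASNS encode cytosolic enzymes, and SHMT2, MTHFD2, MTHFD1L and PCK2 encode mitochondrial ones. All 10 were found and all 10 passed the filter on low counts. The cells were HepG2, an established human line of hepatocellular carcinoma, labelled wild type, and each culture was treated for 12 h. The groups were sorafenib polysome and sorafenib light libraries (10 µM sorafenib, a multikinase inhibitor, from a stock in DMSO) and vehicle polysome and vehicle light libraries (DMSO alone), with 3 libraries in each group. All 6 cultures received cycloheximide, which holds ribosomes on mRNA, before lysis, and each lysate was run on a sucrose gradient. The light pool held low-molecular complexes, ribosomal subunits and monosomes, and the other pool held the polysomes, so each culture gave 1 library of each pool. Each lysate normally joined 2 dishes. The submitters call the assay RiboSeq, and the sources used here do not give the steps from pooled RNA to library, so whether whole RNA of a pool or ribosome-protected fragments were sequenced is not known here. Unfractionated RNA was not among the 12 libraries, so more of an mRNA on polysomes and more of it in the cell cannot be told apart. In such bulk samples fewer cells with an mRNA and less of it per cell cannot be told apart either.

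Serine is made from a glycolytic intermediate by PHGDH, PSAT1 and PSPH in turn. Serine hydroxymethyltransferases then split it into glycine and a C1 unit carried by tetrahydrofolate, in the cytosol by SHMT1 and in mitochondria by SHMT2. In mitochondria MTHFD2 oxidises the unit and MTHFD1L releases it as formate, which trifunctional MTHFD1 puts back onto folate in the cytosol for purine, thymidylate and methionine synthesis. ASNS makes asparagine from aspartate with nitrogen from glutamine, and PCK2 makes phosphoenolpyruvate from oxaloacetate inside mitochondria. Several of these genes are textbook targets of ATF4, the transcription factor of the integrated stress response, which cells activate when amino acids are short or proteins misfold.

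Libraries held 511065 to 13336689 counts, and the sorafenib light group was the shallowest, with 2060384, 511065 and 4989312 counts in libraries 1 to 3. Its replicates were also the least alike, with Pearson's r of log2 CPM across genes at 0.80 to 0.93, against 0.95 to 0.99 in the other groups. These correlations are across genes, which are not independent. The hepatocyte markers were present in every library, the lowest being TTR at 28 CPM. The 9 leukocyte, fibroblast and endothelial markers summed to at most 3.09 CPM per list outside the sorafenib light group. In that group the fibroblast and endothelial lists reached 20.6 CPM each, in a library where 1 count is worth about 1.87 CPM. The summed hepatocyte markers were at 22500 to 29600 CPM in sorafenib polysome libraries and 6230 to 12800 CPM in vehicle polysome libraries. They were at 28100 to 33900 CPM in sorafenib light libraries and 7350 to 14700 CPM in vehicle light libraries. Not all markers moved with the sum: HNF4A averaged 77.9 CPM in sorafenib and 91.5 CPM in vehicle polysome libraries, and 66.1 CPM in sorafenib and 107 CPM in vehicle light libraries. TTR averaged 60.9 CPM in sorafenib and 129 CPM in vehicle polysome libraries, and APOB 283 CPM in sorafenib and 536 CPM in vehicle light libraries. The part of these markers in the results was not tested. Levels below are counts relative to the scaled library total, with factors from the trimmed mean of M values (TMM), in edgeR's CPM unit, and a gene was called at an edgeR adjusted p under 0.05 over all 14955 genes tested.

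After sorafenib the enzymes as a set took a larger part of the sequenced RNA in both pools. Before any scaling between libraries, the 10 together made up 0.189%, 0.152% and 0.217% of all counts in sorafenib polysome libraries, against 0.0701%, 0.0668% and 0.0597% in vehicle polysome libraries. The sorafenib light libraries held 0.089%, 0.106% and 0.0965%, against 0.0384%, 0.0417% and 0.0373% in vehicle light libraries. In neither pool did the treatments overlap. On polysomes 8 of the 10 rose and 0 fell, while 20.9% of all genes tested were called higher and 28.8% lower. The light pool had 5 that rose and 0 that fell, beside 11.7% of all genes called higher and 17.7% lower. The median log2 fold change of the members was 1.38 on polysomes and 0.68 in the light pool, beside medians of -0.26 and -0.12 over all genes. TMM scaling within each pool moved the polysome medians to 1.60 for the members and -0.03 for all genes, of which 26.2% were then called higher and 21% lower. With library totals alone the light-pool medians were 1.13 for the members and 0.31 for all genes, of which 24.4% were called higher and 8.8% lower. The 6 cytosolic enzymes had a median of 1.71 and the 4 mitochondrial enzymes 1.18 on polysomes. The light-pool medians were 0.90 for the cytosolic and 0.60 for the mitochondrial enzymes.

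**Figure D1:**
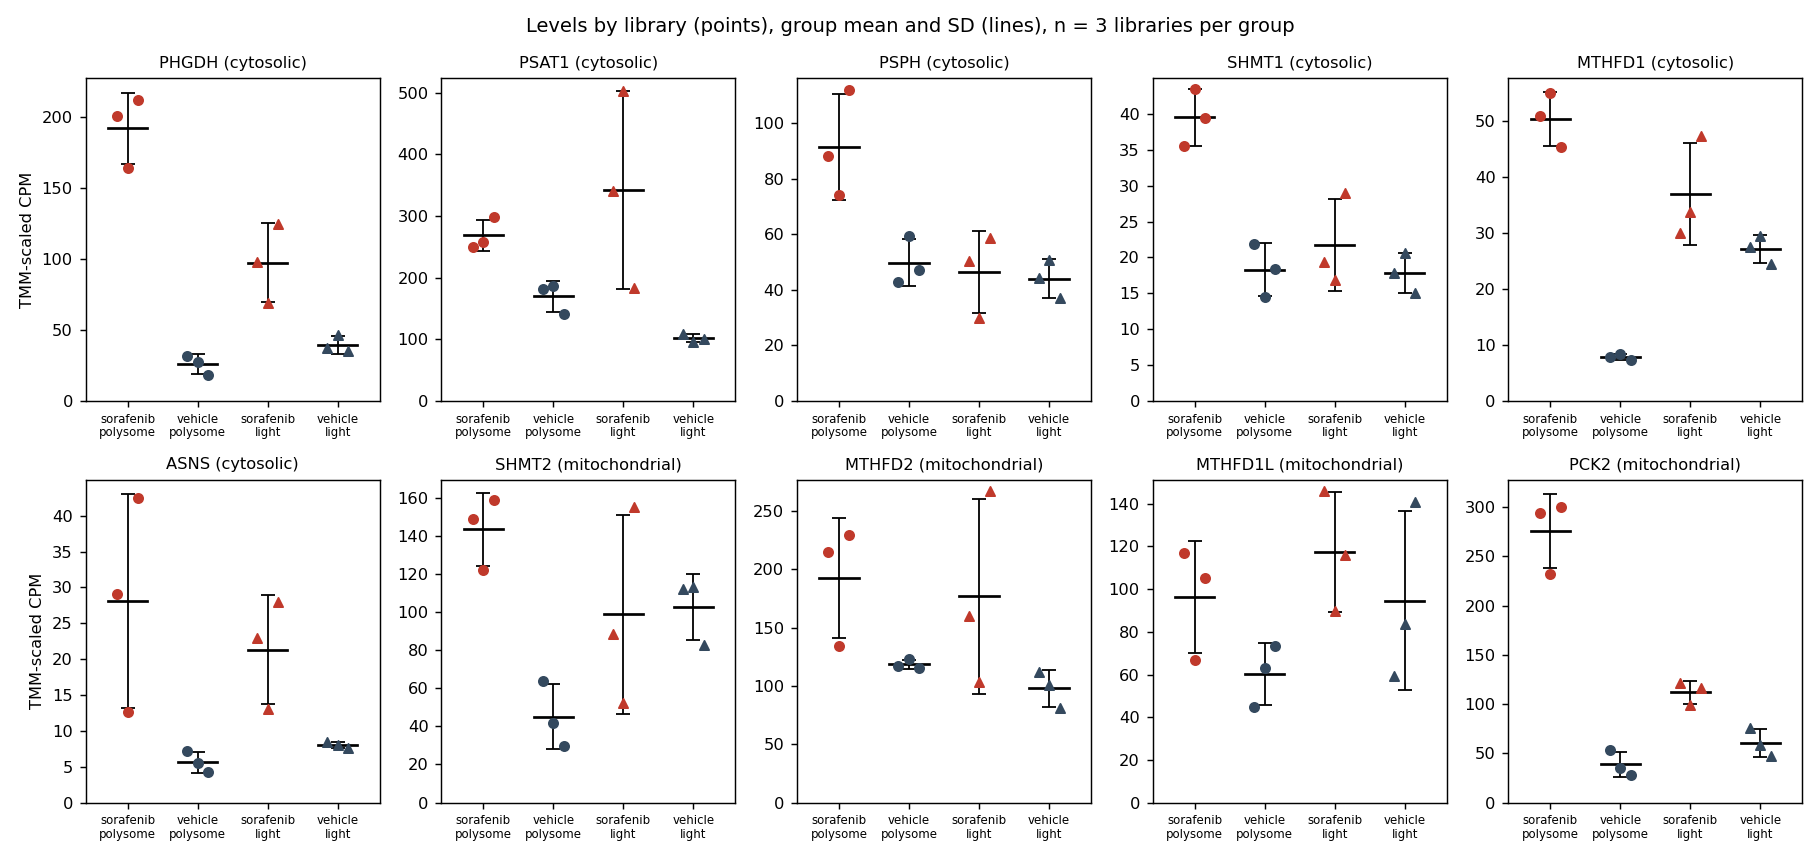
TMM-scaled CPM of each enzyme gene (y axis, from 0) in the 12 libraries, grouped by treatment and pool, with points for libraries and black lines for the group mean and SD. The sorafenib polysome points lie above all vehicle polysome points for every enzyme except MTHFD1L, and MTHFD1 has its lowest points, 7.35 to 8.33 CPM, in vehicle polysomes. The share of all genes with polysome points apart in this way was not counted.

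PHGDH, which commits the glycolytic intermediate to serine, had the highest polysome log2 fold change of the 10. It was at 201, 164 and 212 CPM in sorafenib polysome libraries, against 32.0, 27.3 and 18.5 CPM in vehicle polysome libraries. The lowest sorafenib polysome library was thus far above the highest vehicle one. The log2 fold change was 2.89 ± 0.26 (SE, n = 3 per group, edgeR adjusted p = 5.02e-07), rank 71 from the highest of 14955 genes. Among light libraries PHGDH was at 98.0, 69.2 and 125 CPM with sorafenib, against 37.2, 46.8 and 34.9 CPM with vehicle. The groups did not overlap there either, and the log2 fold change was 1.33 ± 0.26 (SE, n = 3 per group, edgeR adjusted p = 0.000944). Ordered by mean level, PHGDH was at 193 CPM in sorafenib polysomes, 97.5 in the sorafenib light pool, 39.6 in the vehicle light pool and 25.9 in vehicle polysomes. Between the last 2 of these, which are vehicle pools, the difference did not pass the test (edgeR adjusted p = 0.0632), while each other neighbouring pair differed. Without both shallow sorafenib light libraries the difference between the sorafenib pools did not pass either (log2 fold change 0.75, edgeR adjusted p = 0.143).

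PSAT1, the aminotransferase of the next step, was called higher in the light pool and missed the threshold on polysomes. On polysomes it was at 250, 258 and 298 CPM with sorafenib, against 181, 187 and 141 CPM with vehicle. These groups did not overlap, but the log2 fold change of 0.66 ± 0.28 (SE, n = 3 per group) missed the threshold (edgeR adjusted p = 0.0568). Light-pool levels of PSAT1 were 341, 503 and 183 CPM with sorafenib, against 109, 95.4 and 101 CPM with vehicle. Each sorafenib library was above each vehicle library, and the log2 fold change was 1.73 ± 0.29 (SE, n = 3 per group, edgeR adjusted p = 0.000343). The highest values, 341 and 503 CPM, were those of the 2 shallowest libraries, and without both of them the log2 fold change was 1.00 (edgeR adjusted p = 0.0134), resting on 1 sorafenib light library. On polysomes the PSAT1 call turned on other libraries too: the log2 fold change was 0.90 to 0.93 and passed when any 1 of the 6 light libraries was left out (edgeR adjusted p between 0.00246 and 0.0172).

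PSPH, the phosphatase that releases free serine, rose 1.84-fold on polysomes and was not called in the light pool. It was at 88.1, 74.0 and 112 CPM in sorafenib polysome libraries, against 42.9, 59.4 and 47.1 CPM in vehicle polysome libraries. The log2 fold change was 0.88 ± 0.24 (SE, n = 3 per group, edgeR adjusted p = 0.00529), and without sorafenib polysome library 3 it was 0.70 (edgeR adjusted p = 0.0627). Light libraries held PSPH at 50.5, 29.9 and 58.6 CPM with sorafenib, against 44.2, 50.9 and 36.9 CPM with vehicle. These values overlapped, and the log2 fold change of 0.14 had a 95% interval of -0.39 to 0.68. The 3 enzymes of serine synthesis therefore had log2 fold changes of 2.89, 0.66 and 0.88 on polysomes and 1.33, 1.73 and 0.14 in the light pool, in pathway order.

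The hydroxymethyltransferases SHMT1 and SHMT2 both rose on polysomes, and neither was called in the light pool. The cytosolic SHMT1 was at 35.6, 43.5 and 39.5 CPM in sorafenib polysome libraries, against 21.9, 14.5 and 18.4 CPM in vehicle polysome libraries. Its log2 fold change was 1.10 ± 0.23 (SE, n = 3 per group, edgeR adjusted p = 0.000714). The mitochondrial SHMT2 was at 149, 122 and 159 CPM in sorafenib polysome libraries, against 63.8, 41.8 and 29.9 CPM in vehicle polysome libraries. The treatments were again fully apart, with a log2 fold change of 1.66 ± 0.32 (SE, n = 3 per group, edgeR adjusted p = 0.000314). Light libraries held SHMT1 at 19.4, 16.8 and 29.0 CPM with sorafenib, against 17.8, 20.6 and 15.1 CPM with vehicle. SHMT2 was at 88.7, 52.4 and 155 CPM with sorafenib in that pool, against 112, 113 and 82.8 CPM with vehicle. Both pairs of groups overlapped, and the intervals of the log2 fold changes were -0.17 to 0.91 for SHMT1 and -0.65 to 0.66 for SHMT2. With library totals alone SHMT1 was at 0.79 and called higher in that pool (edgeR adjusted p = 0.0271).

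MTHFD1, the trifunctional cytosolic enzyme, was scarce on vehicle polysomes and rose strongly there with sorafenib. It was at 50.8, 54.9 and 45.3 CPM in sorafenib polysome libraries, against 7.78, 8.33 and 7.35 CPM in vehicle polysome libraries, from 642 to 958 counts per sorafenib library and 47 to 101 per vehicle library. The vehicle values lay within 1 CPM of each other, and the log2 fold change was 2.69 ± 0.23 (SE, n = 3 per group, edgeR adjusted p = 4.8e-07). Light libraries held MTHFD1 at 29.9, 33.7 and 47.2 CPM with sorafenib, against 27.4, 29.4 and 24.5 CPM with vehicle. The groups did not overlap, but by a narrow margin, and the log2 fold change of 0.48 ± 0.23 (SE, n = 3 per group) did not pass (edgeR adjusted p = 0.116). Without sorafenib light library 2 it was 0.66 and passed (edgeR adjusted p = 0.0438), as it did at 0.93 with library totals alone (edgeR adjusted p = 0.00506).

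The mitochondrial C1 enzymes MTHFD2 and MTHFD1L had polysome log2 fold changes of 0.70 and 0.68, close to the 0.66 of PSAT1 and below the other members. MTHFD2, which oxidises the folate-bound unit, was at 215, 134 and 229 CPM in sorafenib polysome libraries, against 117, 123 and 115 CPM in vehicle polysome libraries. Its log2 fold change of 0.70 ± 0.29 (SE, n = 3 per group) was just inside the threshold (edgeR adjusted p = 0.0471), and leaving out any polysome library except sorafenib library 2 moved the adjusted p to between 0.107 and 0.212. MTHFD2 in the light pool was at 160, 103 and 267 CPM with sorafenib, against 112, 101 and 80.9 CPM with vehicle. There it was called higher although the groups overlapped (log2 fold change 0.88 ± 0.29, SE, n = 3 per group, edgeR adjusted p = 0.0283). Without sorafenib light library 3, the highest, the log2 fold change was 0.42 (edgeR adjusted p = 0.294), and without vehicle light library 1, 2 or 3, sorafenib polysome library 1 or 3, or vehicle polysome library 2 it was 0.81 to 1.05 with an edgeR adjusted p of 0.0504 to 0.106. MTHFD1L, the mitochondrial formyltetrahydrofolate synthetase, was at 117, 66.9 and 105 CPM in sorafenib polysome libraries, against 44.6, 63.1 and 73.4 CPM in vehicle polysome libraries. Its polysome groups overlapped, and its log2 fold change of 0.68 ± 0.30 (SE, n = 3 per group) did not pass (edgeR adjusted p = 0.0673). MTHFD1L in the light pool was at 146, 89.8 and 116 CPM with sorafenib, against 59.3, 83.6 and 141 CPM with vehicle. Those groups overlapped as well, and the interval of the log2 fold change was -0.31 to 0.97.

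Under TMM scaling within each pool, MTHFD1L (0.91, edgeR adjusted p = 0.0161) and PSAT1 (0.88, edgeR adjusted p = 0.0168) passed on polysomes too. MTHFD1L likewise passed at 0.87 to 0.95 without any 1 of the light libraries or sorafenib polysome library 2 (edgeR adjusted p between 0.00938 and 0.0433). With that scaling all 10 members were called higher in that comparison, beside 26.2% of all genes. Other settings gave both calls too. The edgeR adjusted p of PSAT1 and MTHFD1L was 0.0426 and 0.0432 with DESeq2 size factors and 0.035 and 0.0257 with library totals. It was 0.0221 and 0.0287 with vehicle polysome library 1 as TMM reference, and 0.0147 and 0.0084 without a low-count filter. PSAT1 passed with the DESeq2 Wald test (DESeq2 adjusted p = 0.0327), and MTHFD1L did not.

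ASNS, which makes asparagine, was the member with the fewest counts, 7 to 602 per library. It was at 29.1, 12.7 and 42.5 CPM in sorafenib polysome libraries, against 7.16, 5.49 and 4.23 CPM in vehicle polysome libraries. The sorafenib values spread widely among themselves but all lay above vehicle, with a log2 fold change of 2.31 ± 0.35 (SE, n = 3 per group, edgeR adjusted p = 4.42e-05). Light libraries held ASNS at 22.9, 13.1 and 28 CPM with sorafenib, against 8.43, 8.04 and 7.68 CPM with vehicle. It rose there too, with a log2 fold change of 1.52 ± 0.38 (SE, n = 3 per group, edgeR adjusted p = 0.00588). Without sorafenib light library 3 the rise was 1.25 and just missed the threshold (edgeR adjusted p = 0.0519).

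PCK2 showed a polysome rise close to that of PHGDH. It was at 294, 232 and 300 CPM in sorafenib polysome libraries, against 53.2, 34.7 and 28.3 CPM in vehicle polysome libraries. The groups were far apart, and the log2 fold change was 2.83 ± 0.27 (SE, n = 3 per group, edgeR adjusted p = 5.94e-07). PCK2 in the light pool was at 121, 99.1 and 116 CPM with sorafenib, against 75.4, 58.4 and 47.1 CPM with vehicle. The log2 fold change there was 0.90 ± 0.26 (SE, n = 3 per group, edgeR adjusted p = 0.0135), and without vehicle light library 3 it was 0.78 (edgeR adjusted p = 0.075) and without vehicle light library 2 it was 0.93 (edgeR adjusted p = 0.0579). The cytosolic isoenzyme PCK1, of gluconeogenesis, was near the detection limit, with 0 to 69 counts per library. It had 26, 69 and 20 counts in sorafenib polysome libraries, against 6, 3 and 0 in vehicle polysome libraries, and was called higher there (log2 fold change 2.96 ± 0.87, SE, n = 3 per group, edgeR adjusted p = 0.00857).

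**Figure D2:**
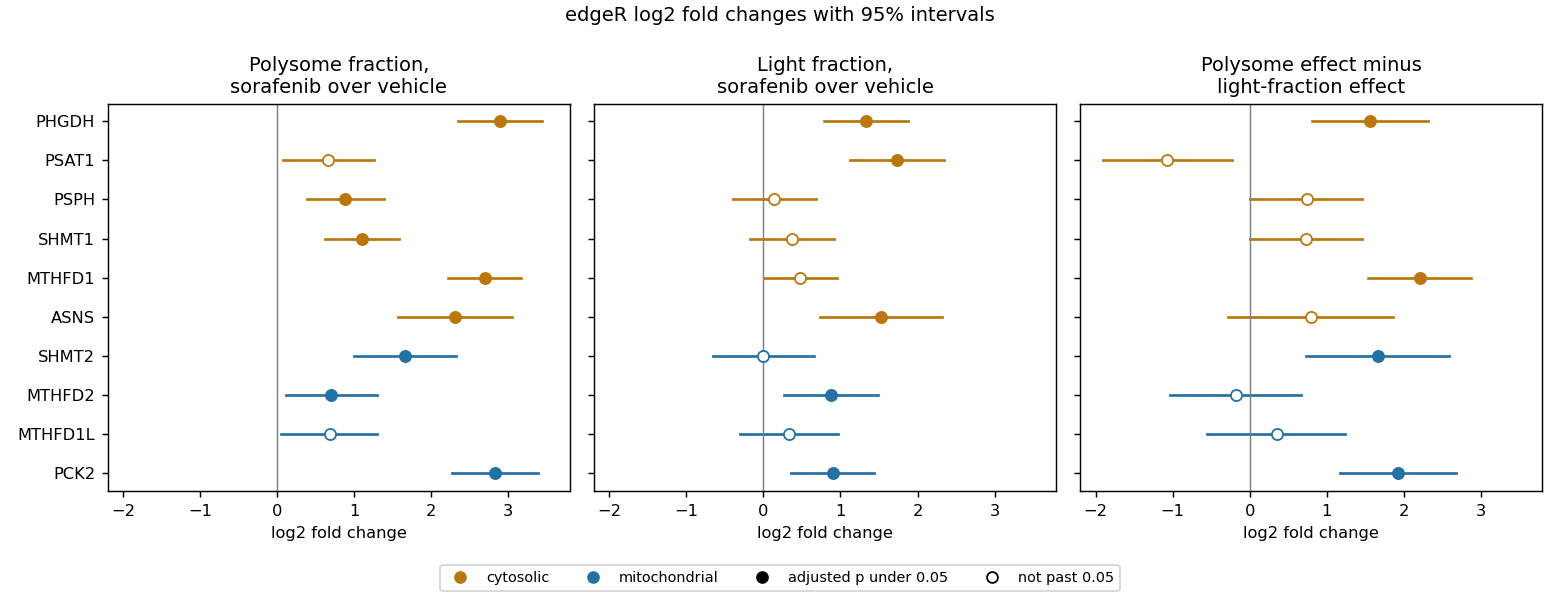
edgeR log2 fold changes (points) with 95% intervals (bars) for sorafenib over vehicle on polysomes, in the light pool, and for the difference of the 2 effects; filled points passed an adjusted p of 0.05. PHGDH, MTHFD1 and PCK2 sit between 2.69 and 2.89 on polysomes, and PSAT1 alone has a negative difference clear of 0, at -1.07, which did not pass.

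The upstream sequences of the members with the largest polysome rises, PHGDH, PCK2, MTHFD1 and ASNS, are shown because all 4 rose on polysomes and because the binding element of ATF4 with its C/EBP partners has a known core. The 250 bases before the transcription start are given from RefSeq, build GRCh38.p14, in the direction of the gene. Capitals mark matches on either strand to TGATGNAA, the core searched for ATF4, to CACGTG, the E-box bound by MYC and related factors, and to CCAAT, the box bound by NF-Y. No matches overlapped. The last pair of motifs was added after the values were seen.
PHGDH, chr1:119711684-119711933, plus strand: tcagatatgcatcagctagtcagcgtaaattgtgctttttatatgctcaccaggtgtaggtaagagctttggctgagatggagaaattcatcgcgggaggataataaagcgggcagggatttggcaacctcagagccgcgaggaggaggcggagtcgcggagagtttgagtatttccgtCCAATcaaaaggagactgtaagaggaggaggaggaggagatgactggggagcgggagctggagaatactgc
PCK2, chr14:24094061-24094310, plus strand: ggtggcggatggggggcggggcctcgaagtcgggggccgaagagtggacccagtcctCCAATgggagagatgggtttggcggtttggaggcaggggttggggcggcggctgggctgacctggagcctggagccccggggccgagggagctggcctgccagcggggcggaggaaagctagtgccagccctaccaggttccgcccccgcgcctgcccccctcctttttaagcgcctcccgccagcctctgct
MTHFD1, chr14:64388103-64388352, plus strand: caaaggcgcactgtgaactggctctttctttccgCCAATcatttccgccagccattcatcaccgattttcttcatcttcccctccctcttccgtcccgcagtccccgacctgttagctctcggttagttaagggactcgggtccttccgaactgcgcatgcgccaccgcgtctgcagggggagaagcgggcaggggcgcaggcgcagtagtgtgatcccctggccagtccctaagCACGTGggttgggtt
ASNS, chr7:97872409-97872658, minus strand: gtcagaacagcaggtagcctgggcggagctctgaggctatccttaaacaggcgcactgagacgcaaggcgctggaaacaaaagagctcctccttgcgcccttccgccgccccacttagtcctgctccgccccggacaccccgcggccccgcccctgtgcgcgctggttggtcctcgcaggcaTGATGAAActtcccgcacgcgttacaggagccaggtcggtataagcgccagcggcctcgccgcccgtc
MTHFD1L, chr6:150866347-150866374, plus strand: ccgccggctcTGATGCAAtcgcgccggg

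The ATF4 core was found in 2 of the 8 members with a RefSeq promoter entry, ASNS and MTHFD1L, in windows running from 250 bases before to 50 after the start. Of all genes with such an entry, 1217 of 27305 (4.46%) held it in at least 1 window. Of the genes tested here with such an entry, 276 of 9976 (2.77%) did. In ASNS the word is TGATGAAA, with its 5′ base 68 bases before 1 of the 2 listed starts, the one shown, and the window of the other start holds no match. In MTHFD1L it is TGATGCAA at 1 place, shown above in a short stretch because that gene has 4 listed starts, and it lies 129 and 90 bases before 2 of them and 25 bases after another. CACGTG was found in 2 of the 8 members, MTHFD1 and MTHFD1L, and in 8.77% of all genes. CCAAT was found in 7 of the 8, all but ASNS, and in 39.7% of all genes. A match describes letters only, and the part of ATF4 in these changes was not tested. ATF4 mRNA was at 406, 319 and 344 CPM in sorafenib polysome libraries, against 469, 375 and 383 CPM in vehicle polysome libraries. Light-pool ATF4 fell to 277, 137 and 326 CPM with sorafenib, against 1060, 1020 and 788 CPM with vehicle (log2 fold change -1.94 ± 0.29, SE, n = 3 per group, edgeR adjusted p = 0.000142).

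Setting each mitochondrial enzyme against its cytosolic counterpart within the same library removes the scaling between libraries. On polysomes the mitochondrial MTHFD2 and MTHFD1L stood lower against MTHFD1 with sorafenib in each library, and in the light pool the groups overlapped. The log2 count ratio of MTHFD2 to MTHFD1 was 2.08, 1.29 and 2.33 in sorafenib polysome libraries, against 3.91, 3.87 and 3.96 in vehicle polysome libraries. All sorafenib ratios were below all vehicle ratios, and the mean difference was -2.01. For MTHFD1L over MTHFD1 the log2 ratios were 1.20, 0.29 and 1.21 in sorafenib polysome libraries, against 2.51, 2.91 and 3.31 in vehicle polysome libraries. The difference was again -2.01, a ratio 4.03-fold lower with sorafenib, and both results share MTHFD1 as the denominator. An exact permutation test (two-sided, 3 against 3 libraries) gave p = 0.1 for each, the smallest this design allows, and 0.267 after adjustment over 8 ratio tests. For light libraries the differences were 0.32 for MTHFD2 over MTHFD1 (exact permutation p = 0.4, adjusted 0.64) and -0.06 for MTHFD1L over MTHFD1 (exact permutation p = 0.9, adjusted 0.9), with overlapping groups.

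SHMT2 and SHMT1 gave no such separation on polysomes. The log2 ratio of SHMT2 to SHMT1 was 2.06, 1.49 and 2.01 in sorafenib polysome libraries, against 1.54, 1.52 and 0.70 in vehicle polysome libraries, and the groups overlapped (difference 0.60, exact permutation p = 0.3, adjusted 0.6). Light-pool ratios were 2.18, 1.58 and 2.41 with sorafenib, against 2.65, 2.46 and 2.44 with vehicle. There all sorafenib ratios were below all vehicle ratios, by a mean of -0.46 (exact permutation p = 0.1, adjusted 0.267). The ratio of PCK2 to PCK1 rested on 0 to 69 PCK1 counts and gave no usable difference in either pool (-0.39 on polysomes and -0.22 in the light pool, exact permutation p = 0.9 and adjusted 0.9 for each).

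**Figure D3:**
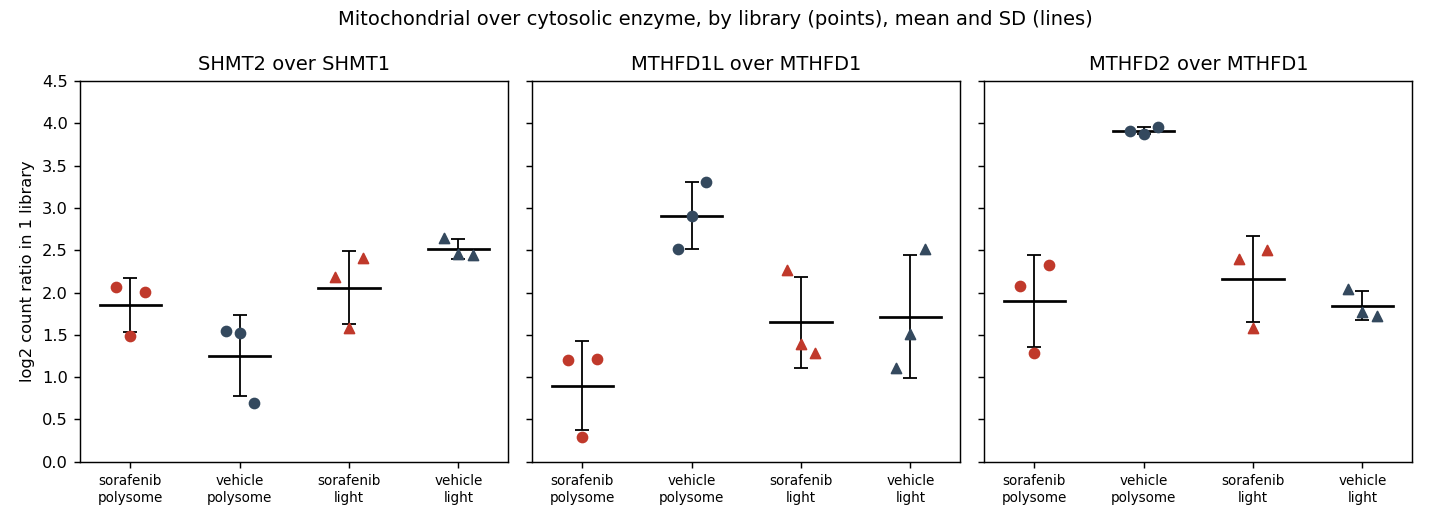
log2 ratio of the counts of a mitochondrial enzyme to those of its cytosolic counterpart within each library (points), with the group mean and SD (black lines). The sorafenib polysome ratios of MTHFD2 and MTHFD1L to MTHFD1 lie at 0.29 to 2.33, below the vehicle polysome ratios of 2.51 to 3.96, each pair being separate in its own panel.

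The next comparison asked whether the effect of sorafenib differed between the pools. For 4 of the 10 members it was larger on polysomes and for 0 it was larger in the light pool, beside 12.8% of all genes called in the first direction and 10.7% in the other. With library totals alone those shares were 8.09% and 16%. The difference of the log2 fold changes was 2.21 ± 0.32 for MTHFD1 (SE, n = 3 per group, edgeR adjusted p = 0.000122), 1.92 ± 0.36 for PCK2 (edgeR adjusted p = 0.000908), 1.66 ± 0.44 for SHMT2 (edgeR adjusted p = 0.0108) and 1.56 ± 0.36 for PHGDH (edgeR adjusted p = 0.00385). These 4 are 2 cytosolic and 2 mitochondrial enzymes. PSAT1 was the opposite case at -1.07 ± 0.40 (SE, n = 3 per group), which did not pass (edgeR adjusted p = 0.0604). Without both shallow sorafenib light libraries the difference was -0.08 for PSAT1, and for SHMT2 it was 1.17 and no longer passed (edgeR adjusted p = 0.0865). Without sorafenib light library 2 alone, PSAT1 was at -0.57. Without sorafenib light library 3, PSAT1 passed at -1.06 (edgeR adjusted p = 0.0279), as did PSPH at 1.23 (edgeR adjusted p = 0.0255) and SHMT1 at 1.35 (edgeR adjusted p = 0.0155).

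Within each culture the polysome level can be set against the light level of the same lysate, here as a log2 difference of CPM with a prior count of 2. PCK2 stood at 1.28, 1.23 and 1.37 in the sorafenib cultures, against -0.50, -0.74 and -0.73 in the vehicle cultures. PHGDH stood at 1.03, 1.25 and 0.76 in the sorafenib cultures, against -0.22, -0.77 and -0.90 in the vehicle cultures. For both genes each sorafenib culture lay on the polysome side and each vehicle culture on the light side under this scaling. The vehicle side depends on it. Between vehicle pools PHGDH and PCK2 were at 0.26 and 0.25 with library totals alone, and at 0.04 and 0.02 with TMM within each pool. MTHFD1 stood at 0.76, 0.70 and -0.06 in the sorafenib cultures, against -1.78, -1.79 and -1.70 in the vehicle cultures, so its groups were also apart. SHMT2 stood at 0.74, 1.22 and 0.04 in the sorafenib cultures, against -0.81, -1.43 and -1.46 in the vehicle cultures. ASNS stood at 0.34, -0.04 and 0.60 in the sorafenib cultures, against -0.23, -0.53 and -0.83 in the vehicle cultures. Each sorafenib culture was above each vehicle culture for SHMT2 and ASNS. PSPH stood at 0.80, 1.3 and 0.93 in the sorafenib cultures, against -0.04, 0.22 and 0.35 in the vehicle cultures. SHMT1 stood at 0.87, 1.36 and 0.44 in the sorafenib cultures, against 0.29, -0.50 and 0.28 in the vehicle cultures. ASNS, PSPH and SHMT1 did not pass the interaction test (edgeR adjusted p = 0.284, 0.135 and 0.131). The share of all genes with the treatments apart in this way was not counted. The treatments were apart for the 7 members above. They overlapped for PSAT1 (-0.45, -0.96 and 0.70 in sorafenib cultures, against 0.73, 0.97 and 0.47 in vehicle cultures), MTHFD2 (0.43, 0.39 and -0.23 in sorafenib cultures, against 0.06, 0.29 and 0.51 in vehicle cultures) and MTHFD1L (-0.31, -0.42 and -0.13 in sorafenib cultures, against -0.41, -0.40 and -0.94 in vehicle cultures). Sorafenib culture 3 gave the lowest value of its group for PHGDH, SHMT1, SHMT2, MTHFD1 and MTHFD2, and not for PSAT1, PSPH, ASNS, MTHFD1L or PCK2.

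**Figure D4:**
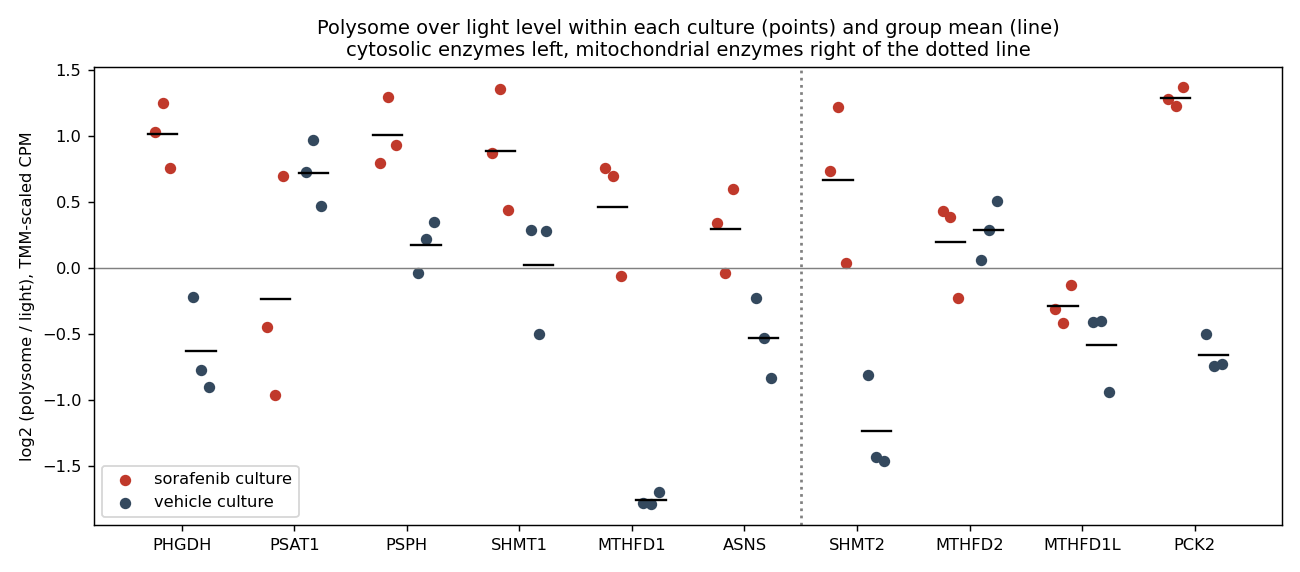
log2 polysome over light level (y axis) of each enzyme gene within each of the 6 cultures (points), with black lines for the mean of 3 cultures; cytosolic enzymes are left and mitochondrial ones right of the dotted line. MTHFD1 runs from -0.06 to 0.76 in sorafenib cultures and from -1.79 to -1.70 in vehicle cultures.

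Between the pools of sorafenib cells, 4 members were higher on polysomes and 0 lower, beside 13.4% and 12.4% of all genes. These were PCK2 (log2 fold change 1.29 ± 0.26), PHGDH (0.94 ± 0.25), PSPH (0.91 ± 0.25) and SHMT1 (0.77 ± 0.25, SE, n = 3 per group for each), with edgeR adjusted p of 0.00139, 0.01, 0.013 and 0.03. SHMT1 no longer passed without sorafenib light library 1 (0.82, edgeR adjusted p = 0.0725), sorafenib polysome library 2 (0.74, edgeR adjusted p = 0.063) or sorafenib polysome library 3 (0.82, edgeR adjusted p = 0.0576), nor PSPH without sorafenib polysome library 3 (0.79, edgeR adjusted p = 0.0666). Without sorafenib light library 3 the members called higher numbered 7, beside 21% of all genes. Leaving out both shallow sorafenib light libraries left 1 library in that group. The log2 fold change was then 1.38 for PCK2, 0.75 for PHGDH, 0.77 for PSPH and 0.58 for SHMT1. PHGDH, PSPH and SHMT1 were no longer called. In vehicle cells 1 member was higher on polysomes and 2 were lower, beside 18.3% and 17.8% of all genes. PSAT1 was higher (0.73 ± 0.28, edgeR adjusted p = 0.0491), and MTHFD1 (-1.80 ± 0.23, edgeR adjusted p = 8.77e-06) and SHMT2 (-1.18 ± 0.31, edgeR adjusted p = 0.00618, SE, n = 3 per group for each) were lower. The PSAT1 call was lost, at 0.66 to 0.81, without any 1 library except sorafenib light library 2 or 3 or vehicle polysome library 3 (edgeR adjusted p between 0.0529 and 0.135). With culture as a block, which these pools share, PHGDH (-0.63), PCK2 (-0.66) and MTHFD1L (-0.59) were also called lower in vehicle cells. The edgeR adjusted p was 0.036, 0.0252 and 0.0415 for these 3. In that fit 5 members were called lower, beside 19.1% of all genes. Without vehicle polysome library 1, PHGDH (-0.78, edgeR adjusted p = 0.0494) and PCK2 (-0.91, edgeR adjusted p = 0.0145) were called lower, and without sorafenib light library 2 PHGDH was (-0.60, edgeR adjusted p = 0.0459). A level in one pool over that in another depends on the scaling: with library totals alone the median of all genes between vehicle pools was 0.82, against -0.06 with TMM, and 48.9% of genes were called higher and 5.86% lower. Between sorafenib pools it was 0.60, against 0.00 with TMM, and 37.4% were called higher and 6.11% lower. MTHFD1 was lower on vehicle polysomes under each scaling tried. SHMT2 was no longer called lower there with library totals alone (-0.30, edgeR adjusted p = 0.401) or with TMM within each pool (-0.52, edgeR adjusted p = 0.19), and PHGDH and PCK2 turned to 0.26 and 0.25 with library totals alone.

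By the root mean square difference of gene-centred log2 CPM over the 12 libraries, PHGDH and PCK2 were each other's nearest member, at 0.258. The genes outside the set with the closest pattern were ACO1 (0.168) and ANXA6 (0.197) for PHGDH and MAGED2 (0.232) and POR (0.264) for PCK2. ACO1 is the cytosolic aconitase that also binds iron-responsive elements, and POR passes electrons to cytochromes P450. The closest to SHMT2 were MYC and NCOA4, at 0.197 each, and to MTHFD1 DPP3 (0.248) and NCAPH (0.25). SHMT1 lay nearest to PRKAR1A (0.14) and ITGA6 (0.157), PSPH to FANCE (0.218) and FLVCR2 (0.22), and PSAT1 to SNX29 (0.152) and PRPSAP2 (0.2). MTHFD2 lay nearest to CERS4 (0.213) and SINHCAF (0.214), MTHFD1L to PRAG1 (0.204) and KRT18 (0.22), and ASNS to JUP (0.289) and ALAS1 (0.302). PSAT1 was the farthest from its nearest member, MTHFD2, at 0.687. MTHFD1L, MTHFD1 and SHMT2 followed, at 0.587, 0.555 and 0.539 from theirs.

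Around these enzymes, a list of 59 genes of folate, glycine, methionine, glutamate and gluconeogenic metabolism held 53 tested genes. On polysomes 24 rose, 7 fell and 22 did not pass, beside 20.9% of all genes higher and 28.8% lower, with a median log2 fold change of 0.42 beside -0.26 over all genes. In the light pool 12 rose, 2 fell and 39 did not pass, beside 11.7% of all genes higher and 17.7% lower, with a median of 0.32 beside -0.12 over all genes. Of 11 cytosolic folate genes tested 5 rose and 0 fell on polysomes, among them ALDH1L1, which oxidises formyltetrahydrofolate, at 14.6 ± 2.56 CPM in sorafenib libraries and 1.96 ± 0.774 CPM in vehicle libraries (SD, n = 3 each, log2 fold change 2.85, edgeR adjusted p = 7.22e-06). Of 10 mitochondrial folate and glycine cleavage genes 3 rose and 5 fell on polysomes, beside 20.9% of all genes higher and 28.8% lower. With TMM within each pool those shares of all genes were 26.2% and 21%. GLDC, the decarboxylase of glycine cleavage, rose to 165 ± 17 CPM in sorafenib polysome libraries, against 40.7 ± 13.1 CPM in vehicle polysome libraries (SD, n = 3 each, log2 fold change 2.01, edgeR adjusted p = 3.11e-06). DLD, the lipoamide dehydrogenase of the same complex, had a log2 fold change of 2.52 (edgeR adjusted p = 3.16e-06). The lipoyl carrier GCSH fell to 80.5 ± 9.26 CPM in sorafenib polysome libraries, against 287 ± 36.4 CPM in vehicle polysome libraries (SD, n = 3 each, log2 fold change -1.84, edgeR adjusted p = 1.08e-05). MTFMT, which formylates the mitochondrial initiator tRNA, fell by 1.17 on the log2 scale (edgeR adjusted p = 0.000106). Subunits of the glycine cleavage system thus moved in both directions on polysomes.

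Among methionine cycle and transsulfuration genes, 6 of 11 tested rose and 1 fell on polysomes, beside the same 20.9% and 28.8% of all genes. Among those that rose was MAT1A, which makes S-adenosylmethionine (log2 fold change 1.61, edgeR adjusted p = 0.000124). MAT1A was not called in the light pool (edgeR adjusted p = 0.135). The one that fell was MAT2A, which makes the same product, at 13.8 ± 3.78 CPM in sorafenib libraries and 46.4 ± 12.4 CPM in vehicle libraries (SD, n = 3 each, log2 fold change -1.76, edgeR adjusted p = 0.000156). It fell in the light pool as well, to 32.9 ± 7.49 CPM with sorafenib, against 210 ± 101 CPM with vehicle (SD, n = 3 each, log2 fold change -2.62, edgeR adjusted p = 3.75e-05). MTRR, which reactivates methionine synthase, fell in the light pool by 0.94 on the log2 scale (edgeR adjusted p = 0.0409). The folate polyglutamate enzymes FPGS (log2 fold change 1.46, edgeR adjusted p = 0.000459) and GGH (1.25, edgeR adjusted p = 0.000424), which add and remove the glutamate tail, rose in the light pool. GNMT, a glycine methyltransferase of liver, rose there by 1.65 (edgeR adjusted p = 0.0153) and ALDH1L1 by 1.28 (edgeR adjusted p = 0.0153). Of the aspartate, glutamine, arginine and proline genes 6 of 14 rose and 1 fell on polysomes, against that same background. PC, the mitochondrial pyruvate carboxylase that supplies oxaloacetate to PCK2, rose there by 2.28 (edgeR adjusted p = 3.86e-06).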

How the data were processed

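The 12 libraries were made from RNA of pooled light or polysome gradient fractions, per the labels; whether whole RNA or ribosome-protected fragments were sequenced is not known here. The authors deposited whole-number counts per gene, not normalized. Per the submitters' processing notes they used GRCh38.p12. No aligner, counting tool, annotation or strand setting is named in the sources used here. Rows of 18 pseudogenes of members held at most 4 counts in a library, so sharing of reads with them cannot be told from the table. Members and lists were chosen with earlier results of these data known.

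The test was that of edgeR 4.0.16 under R 4.3.3 (quasi-likelihood, filterByExpr, TMM, Benjamini-Hochberg) on all 12 libraries without a block, leaving 14955 genes; the method was tested on simulated data. Each SE was taken as |log2 fold change| divided by √F, and 95% intervals use 19.3 degrees of freedom. Totals of 511065 to 13336689 counts set the precision. All changes are relative to other genes in the library. Within-library ratios had 0.5 added to each count. Permutation tests used SciPy 1.17.1. Where replicates are not separate cultures, p-values measure only the spread between libraries; within a group, library pairs differed by 9.58 to 49.2 times their counting noise (chi-square over degrees of freedom).

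By their titles, a light and a polysome library that share treatment and number come from 1 culture. Deviations of such pairs from their groups' means correlated at 0.05, 0.04 and 0.04 in sorafenib cultures and 0.14, -0.07 and 0.33 in vehicle cultures. All 10 members matched RefSeq genes by symbol and 8 a promoter entry. Named genes were the members, ATF4, PCK1, the 2 nearest patterns per member, up to 4 list genes per direction, and MAT1A beside MAT2A. Alternatives covered scaling, filter, tool (DESeq2 1.42.0), groups fitted, blocks and libraries left out.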

Additional observations from a re-analysis of the deposited data

Results flagged for a closer look

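Sorafenib changed 4 members to a different extent on polysomes than in the light pool, by the interaction term of the edgeR fit. Over all genes that term called 12.8% higher and 10.7% lower, and 8.09% and 16% with library totals alone. The effect on polysomes minus the effect in the light pool was 1.56 (log2) for PHGDH, 1.66 for SHMT2, 2.21 for MTHFD1 and 1.92 for PCK2. Each was positive under all alternatives tried. Over those alternatives the edgeR or DESeq2 adjusted p ran from 0.00034 to 0.032 for PHGDH, 8.54e-11 to 0.00152 for MTHFD1, 5.50e-06 to 0.00801 for PCK2 and 0.000187 to 0.0865 for SHMT2.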

How the results depend on the processing

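On polysomes no member changed sign between treatments under any alternative tried, and the calls of PHGDH, MTHFD1, PCK2, ASNS, SHMT2 and SHMT1 held under all of them. Leaving out 1 library gave 6 to 10 members called higher there, beside 15% to 27.8% of all genes. In the light pool 3 to 6 were higher, beside 7.95% to 15.6% of all genes. For the interaction 4 to 6 were higher and 0 to 1 lower, beside 8.74% to 17.3% and 4.98% to 10.5%. Between sorafenib pools 2 to 7 were higher, beside 8.93% to 21%. Between vehicle pools 0 to 1 were higher and 2 to 4 lower, beside 12.4% to 20.5% and 11.8% to 19.5%. The lowest polysome count, 6, came without sorafenib polysome library 3, where 15% of all genes were called higher. In the light pool 3 members were called without sorafenib light library 3, vehicle light library 2 or vehicle light library 3, and with no low-count filter. The shares of all genes called higher were then 12.6%, 7.95%, 10.8% and 3.16%, in that order. Library totals alone gave the most in that pool, 7, beside 24.4% of all genes. Between vehicle pools, DESeq2 size factors in edgeR and the DESeq2 Wald test each gave 0 higher and 4 lower. Of all genes, 17.1% and 13.9% were then called higher and 19.2% and 14.4% lower. Library totals alone and TMM within each pool each gave 4 higher and 1 lower. Of all genes, 48.9% and 39.7% were then called higher and 5.86% and 7.55% lower. No low-count filter gave 0 higher, beside 4.84% of all genes. Culture as a replicate block gave 5 lower, beside 19.1% of all genes, and changed no other call. Its counts for the interaction were the same, beside 14.8% of all genes higher and 11.6% lower. The replicate number as a block between treatments, which pairs no cultures, left PSAT1 on polysomes at 0.69 (edgeR adjusted p = 0.046) and MTHFD2 at 0.66 (edgeR adjusted p = 0.053). Between sorafenib pools 7 members were higher with library totals, 8 with TMM within each pool and 7 without a filter. Of all genes, 37.4%, 47.1% and 10.3% were then called higher. Library totals gave 1 lower interaction, PSAT1, beside 16% of all genes.

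Some values changed sign. Between vehicle pools these were SHMT1 at -0.01 with DESeq2 size factors and 0.00 with DESeq2; PHGDH 0.26, MTHFD1L 0.24, ASNS 0.37 and PCK2 0.25 with library totals; and PHGDH 0.04, ASNS 0.14 and PCK2 0.02 with TMM within each pool. Between sorafenib pools PSAT1 and MTHFD1L were at 0.17 and 0.29 with library totals, 0.45 and 0.49 with TMM within each pool, and 0.43 and 0.35 without a filter. Without both shallow libraries PSAT1 was at 0.68 and MTHFD2 at -0.34. SHMT2 in the light pool was at -0.08 without a filter and -0.04 with the number block, and the MTHFD2 interaction at 0.31 without a filter. With 1 library left out, ranges were -0.51 to 0.38 for SHMT2 and -0.08 to 0.44 for PSPH in the light pool, -0.31 to 0.55 for the MTHFD2 interaction, and -0.09 to 0.20 for SHMT1 between vehicle pools. Between sorafenib pools they were -0.34 to 0.18 for PSAT1, -0.41 to 0.06 for MTHFD1L, -0.03 to 0.85 for MTHFD2 and -0.10 to 0.84 for ASNS. Ratio differences ran from -0.37 to 0.34 for MTHFD1L over MTHFD1 in the light pool, and from -1.14 to 0.65 on polysomes and -1.66 to 1.16 in the light pool for PCK2 over PCK1. Adding 1 count in place of 0.5 gave 0.02 for PCK2 over PCK1 on polysomes. The cause of each change was not tested.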

Other observations

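MTHFD2L, the mitochondrial paralogue of MTHFD2, went the other way from it on polysomes. It was at 12.1 ± 0.364 CPM in sorafenib polysome libraries and 40.2 ± 4.18 CPM in vehicle polysome libraries (SD, n = 3 each), a log2 fold change of -1.73 ± 0.25 (SE, edgeR adjusted p = 2.27e-05), whereas MTHFD2 had 0.70. In the light pool MTHFD2L averaged 30.8 ± 15.4 CPM with sorafenib and 31.6 ± 2.41 CPM with vehicle (SD, n = 3 each), and did not pass (edgeR adjusted p = 0.607). Its sorafenib log2 fold change was more negative on polysomes than in the light pool by the interaction test (difference -1.53 ± 0.36, SE, edgeR adjusted p = 0.00501). The ATF4 mRNA had a positive interaction (1.74 ± 0.40, SE, edgeR adjusted p = 0.00417), through its fall in the light pool. Its log2 polysome over light level was 0.55, 1.22 and 0.08 in the sorafenib cultures, against -1.18, -1.44 and -1.04 in the vehicle cultures.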
